A study of Mus musculus with 6 samples.

Results

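The 10 mouse genes described here encode the partners with which atypical protein kinase C (aPKC) sets the apical and basal sides of an epithelial cell. They were taken from the deposited table by symbol: Pard3, Pard3b, Pard6a, Pard6b and Pard6g of the Par complex, Llgl1, Llgl2, Scrib and Dlg1 of the Lgl and Scribble modules, and Crb3 of the Crumbs module. All 10 were found among 25067 rows and all 10 passed the filter on low values that 13210 rows passed. Pard3 also had a second row with at most 6 reads in a library, which was kept apart and not tested, so the 10 symbols filled 11 rows.

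The study isolated crypts from the colon of 8-week-old C57BL/6 mice, grew them as organoids (cultured epithelial spheres that renew themselves from stem cells) with WNT3A, EGF, Noggin and R-spondin 1, and sequenced their RNA. All 6 cultures carried the same genotype, Prkci f/f and Prkcz f/f with Villin-CreERT2, in which both aPKC genes are floxed and the Villin promoter drives a tamoxifen-activated Cre in intestinal epithelial cells. The vehicle group (n = 3) received ethanol and the 4-OHT group (n = 3) received 4-OH-Tamoxifen upon passage, and both were cultured for 3 days. The vehicle libraries are described as wild type in the labels but hold the floxed alleles and the Cre, and no 4-OHT library without the floxed alleles or the Cre was analysed here, so effects of the drug, of Cre activity and of aPKC loss cannot be told apart. The labels do not state whether replicates were separate animals or cultures, so the p-values measure only the spread between these samples, which may be technical.

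In epithelia, Par6 binds aPKC and active Cdc42 and, with the scaffold Par3, forms the apical Par complex. aPKC phosphorylates Lgl and so keeps it off the apical membrane, while Lgl, Scribble and Dlg act at the lateral membrane and Crumbs proteins mark the apical membrane. In the gut this machinery positions the junctions and the brush border side of the cell and helps to orient dividing crypt cells.

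Libraries held between 15804709 and 26957612 reads assigned to genes. The targeted genes fell: Prkcz, which encodes PKCζ, had normalized counts of 879.8, 903.7 and 954.0 with vehicle and 287.2, 265.4 and 290.3 with 4-OHT (log2 fold change -1.70, SE 0.076, limma adjusted p = 3.174e-12). Prkci, which encodes PKCλ/ι, had 3603.1, 3526.2 and 3429.7 against 2869.0, 3105.5 and 3089.4 (-0.22, SE 0.048, limma adjusted p = 8.127e-04). Which exons are floxed is not given in the sources used here, and reads from the rest of each gene are counted with the others. Markers of colonic epithelium were high in all libraries, with 9 of 12 higher and 2 of 12 lower in 4-OHT, and their summed level was 24088.3 to 24810.1 RPM (reads of the list scaled to the total reads of the library) with vehicle and 30526.6 to 32316.4 with 4-OHT. In 4-OHT replicates 2 and 3, Paneth cell and ileal transcripts reached 109.3 and 99.41 RPM against 32.92 to 52.78 in the other libraries, and plasma and B cell transcripts reached 10.62 and 4.09 against at most 0.3925, with Mzb1 at 0 in every library. Smooth muscle transcripts reached 3.165 and 8.408 RPM there and at most 0.5062 elsewhere, and fibroblast transcripts reached 11.36 in 4-OHT replicate 3 and at most 3.581 elsewhere. In bulk RNA, a change in the number of cells of a type and a change in RNA per cell cannot be told apart.

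Sequences just upstream of 3 transcription starts are shown because Crb3 and Pard6b rose and hold a short sequence that the window of Pard6a, which fell, lacked. The 3 were picked for this contrast after their values were seen, so it tests no link between the sequence and the changes. They come from RefSeq on the GRCm38.p6 assembly, plus strand, 5′ to 3′, and capitals mark each CAGGTG on either strand (CACCTG when read on the printed strand), the E-box type that Snail and ZEB repressors are known to bind.
Crb3, chr17:57061951-57062170: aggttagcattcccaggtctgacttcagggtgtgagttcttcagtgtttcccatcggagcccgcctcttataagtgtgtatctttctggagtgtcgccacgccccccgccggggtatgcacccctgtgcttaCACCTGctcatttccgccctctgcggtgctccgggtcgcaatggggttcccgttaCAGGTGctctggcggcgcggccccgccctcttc
Pard6b, chr2:168080754-168081003: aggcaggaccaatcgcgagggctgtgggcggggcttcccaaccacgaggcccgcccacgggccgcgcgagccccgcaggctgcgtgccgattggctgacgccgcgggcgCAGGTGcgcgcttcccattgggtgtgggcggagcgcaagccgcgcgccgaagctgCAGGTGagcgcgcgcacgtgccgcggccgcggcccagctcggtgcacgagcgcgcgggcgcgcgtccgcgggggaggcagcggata
Pard6a, chr8:105700898-105701147: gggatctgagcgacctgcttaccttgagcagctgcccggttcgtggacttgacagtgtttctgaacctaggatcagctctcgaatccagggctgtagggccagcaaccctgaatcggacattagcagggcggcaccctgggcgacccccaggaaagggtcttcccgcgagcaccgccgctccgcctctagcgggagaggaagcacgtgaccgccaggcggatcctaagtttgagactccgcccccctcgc
The Crb3 sequence stops 30 bases inside an annotated exon of the gene, and the last 30 bases of its window before the start are left off. The full 250 bases before the first Crb3 start held 3 matches, beginning 118, 63 and 7 bases before it, and the Pard6b window held 2 matches, 141 and 86 bases before its start. The window of the second Crb3 start overlaps the first and held the same 3 matches, 148, 93 and 37 bases before that start. Both Crb3 starts lie inside the gene as annotated, which begins at base 57059105. The annotated exon begins at base 57062141, so the middle one of the 3 Crb3 matches spans its first base and the last lies past that base. Neither start of Pard6a had a match.

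Windows of 250 bases were read for 13 starts of 7 of the 10 genes. Windows of Llgl2, which also rose, of Scrib and of Pard6g were not analysed here. The second start of Pard3, inside the gene, had 3 matches, and the first start of Pard3, all 4 starts of Dlg1 and the single starts of Pard3b and Llgl1 had 0. Among 32851 windows of the same length in the RefSeq table, 17.2% held at least 1 match, 2.06% at least 2 and 0.247% at least 3. The palindromic E-box CACGTG stood 48 bases before the first Pard6a start and 72 bases before the Pard6b start. It also stood 10 bases before the first Dlg1 start and 84 bases before the second, and was in 6.02% of all windows. GGGCGG, the GC box, was found 3 times before Crb3, 3 times before Pard6b and 2 times before the first start of Pard6a. Of all windows, 32.7% held at least 1 GC box, 16.7% at least 2 and 8.47% at least 3. Both strands were searched, and in the windows of these 3 genes no match shared bases with a match of another of the 3 motifs. G and C made up 77.6% of the Pard6b window and 63.2% of the first Crb3 and Pard6a windows. The motif searches were chosen after the values of these genes were seen.

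**Figure D1:**
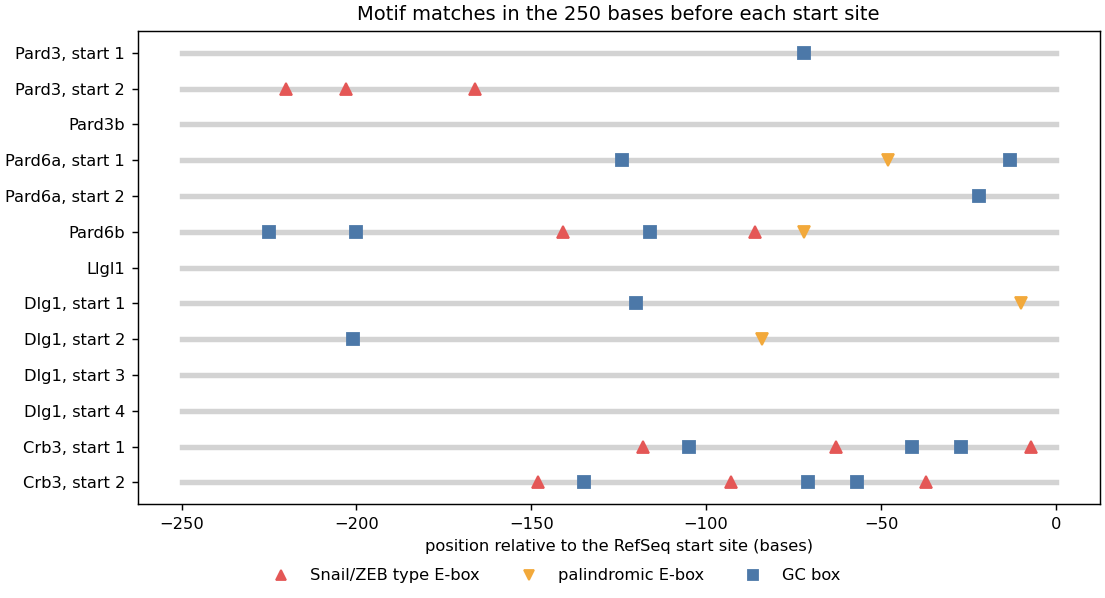
Matches of 3 motifs in the 250 bases before each of 13 RefSeq start sites (x axis, bases relative to the start; 1 line per start site), with triangles for CAGGTG, inverted triangles for CACGTG and squares for GGGCGG, on either strand. Red triangles are seen before Crb3, Pard6b and the second Pard3 start and before no other start shown.

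The comparison of 4-OHT with vehicle organoids asked which of these partners changed in RNA level when aPKC was targeted. Crb3, Pard6b and Llgl2 rose, Pard6a fell, and the other 6 did not pass the test (limma on log2 of the normalized count plus 1, Benjamini-Hochberg adjusted p under 0.05). Thus 3 of 10 were higher and 1 of 10 was lower, where 43.6% of all tested genes were called, 22.7% higher and 21.0% lower. The values of the 2 groups did not overlap for 8 of the 10, with 4-OHT above for 6 and below for 2, where 52.1% of all tested genes did not overlap. The median log2 fold change of the 10 was 0.10 and that of all tested genes -0.01. The shares called were close to those of the table as a whole, so the account below concerns which gene moved and by how much.

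**Figure D2:**
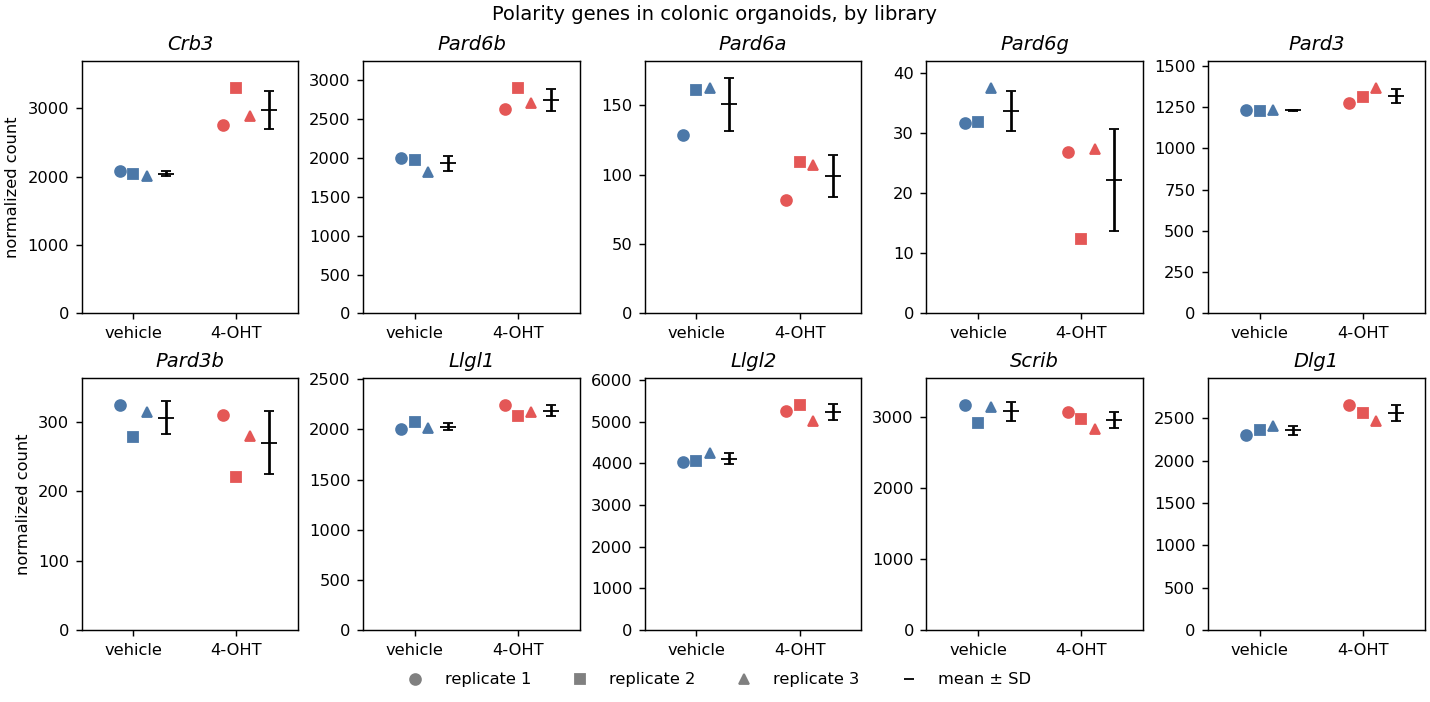
Normalized counts (y axis, from 0) of the 10 genes in each of 6 libraries, by group (x axis); symbols mark replicates and bars the mean ± SD of 3 libraries. Crb3, Pard6b and Llgl2 lie higher in all 3 4-OHT libraries, Pard6a lies lower, and the groups overlap for Pard3b and Scrib.

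Among the Par6 paralogs, the adaptors that hold aPKC and Cdc42, Pard6b and Pard6a moved in opposite directions. Pard6b had normalized counts of 1999.4, 1973.5 and 1820.8 with vehicle and 2627.2, 2896.1 and 2699.0 with 4-OHT. Every 4-OHT value lay above every vehicle value, and the means were 1931.2 ± 96.5 and 2740.8 ± 139.2 (SD, n = 3 each), a ratio of 1.419. The log2 fold change was 0.50 (SE 0.053, 95% interval 0.3934 to 0.6164, limma adjusted p = 2.516e-07), and 8.115% of tested genes had a larger rise.

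Pard6a had normalized counts of 128.7, 161.0 and 162.2 with vehicle and 81.62, 108.8 and 107.0 with 4-OHT, from 79 to 227 reads per library. All 3 4-OHT values lay below the vehicle values, the lowest being 4-OHT replicate 1. The means were 150.7 ± 18.99 and 99.15 ± 15.21 (SD, n = 3 each) and the log2 fold change was -0.60 (SE 0.15, 95% interval -0.9255 to -0.2798, limma adjusted p = 0.003539). Counting error alone would give an SD of 11.98 and 10.31 normalized counts in these groups. A larger fall was seen in 7.002% of tested genes.

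Pard6g was the lowest of the Par6 genes, with 31.72, 31.92 and 37.53 normalized counts with vehicle and 26.86, 12.44 and 27.32 with 4-OHT, from 12 to 45 reads. The groups did not overlap, but the log2 fold change of -0.66 had an interval of -1.316 to 0.003243 and did not pass (SE 0.32, limma adjusted p = 0.1008). Its estimate rested on 4-OHT replicate 2, the lowest value, without which it was -0.30 (limma adjusted p = 0.429).

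As a share of all Par6 reads in a library, Pard6b made up 92.57%, 91.09% and 90.11% with vehicle and 96.03%, 95.98% and 95.26% with 4-OHT. The share of Pard6a was 5.961%, 7.433% and 8.029% with vehicle and 2.983%, 3.607% and 3.777% with 4-OHT, a difference of means of -3.685 percentage points. In reads per kilobase of exon the difference was -7.014 points for Pard6a and 7.791 points for Pard6b, where the latter was 4.499 points in reads. Pard6g held 1.469%, 1.473% and 1.857% against 0.9819%, 0.4122% and 0.9642%. Shares do not depend on how libraries were scaled, and for all 3 paralogs the 2 groups lay apart (two-sided exact permutation p = 0.1 each, the smallest that 3 against 3 allows, and 0.125 after adjustment over the 5 shares compared in the Par6, Par3 and Lgl families). The 3 shares of a library add up to the whole, so these are not 3 separate results. A rise of Pard6b alone would lower the other shares, and Pard6g did not pass its own test. The summed Par6 level was 2116 ± 82.39 normalized counts with vehicle and 2862 ± 143.0 with 4-OHT, so the rise of Pard6b was larger than the fall of the other paralogs.

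With Prkci lower and Pard6b higher, the ratio of Pard6b to Prkci in normalized counts per kilobase of exon was 0.9062, 0.914 and 0.867 with vehicle and 1.496, 1.523 and 1.427 with 4-OHT. The ratio was thus 1.654 times higher, a value computed as a description after both genes had been seen. Prkci reads from outside the floxed exons are counted in it, so it need not reflect intact Prkci transcripts.

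**Figure D3:**
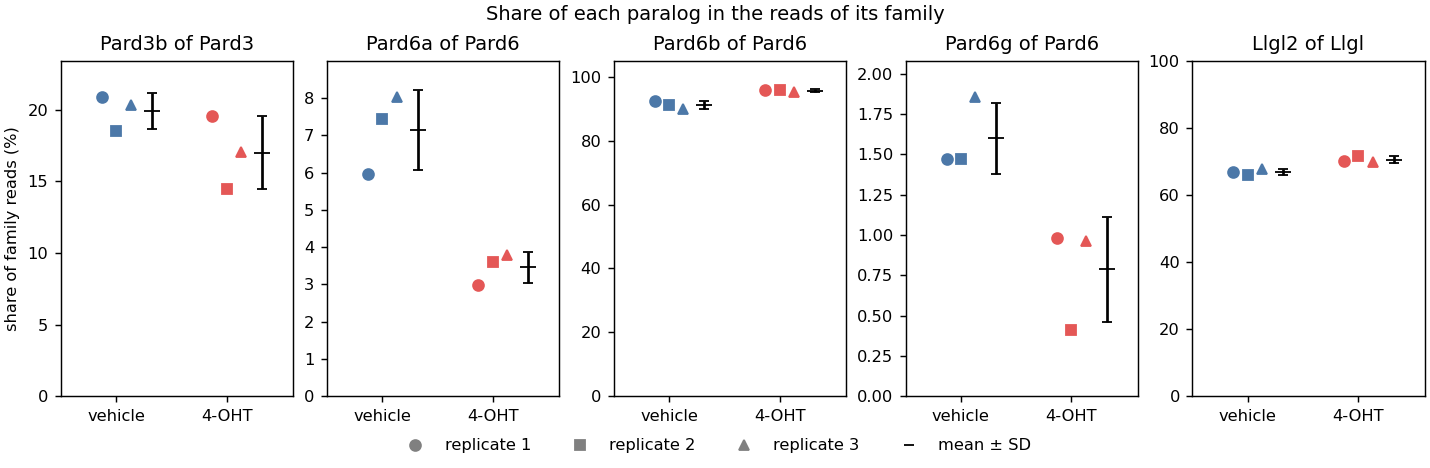
Share of each paralog in the reads of its family (y axis, percent, from 0) in each library, by group; symbols mark replicates and bars the mean ± SD of 3 libraries. Pard6b and Llgl2 take a larger share and Pard6a and Pard6g a smaller share in all 3 4-OHT libraries, and the Pard3b shares overlap.

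The Par3 scaffolds, which carry the complex to the junction, did not pass the test. Pard3 had 1229.7, 1227.9 and 1234.8 normalized counts with vehicle and 1276.9, 1308.1 and 1364.9 with 4-OHT. The groups did not overlap, yet the log2 fold change was 0.10 with an interval of -0.01667 to 0.21 (limma adjusted p = 0.1603), and the vehicle SD of 3.598 was far below the 34.22 that counting error alone gives at these read numbers. Pard3b, a paralog that does not bind aPKC as Par3 does, had 324.7, 278.8 and 314.8 against 309.9, 220.8 and 280.0, which overlap (log2 fold change -0.19, interval -0.4329 to 0.0529, limma adjusted p = 0.1999). Its share of Par3 reads was 20.89%, 18.50% and 20.31% with vehicle and 19.53%, 14.44% and 17.02% with 4-OHT, also overlapping (exact permutation p = 0.2). In the GENCODE annotation of GRCm38, 11 other genes overlap Pard3b, 6 of them on the opposite strand, and whether reads were counted by strand is not given in the sources used here.

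Crb3, the main Crumbs protein of simple epithelia and an apical membrane anchor for Par6 and Pals1, rose in all 3 4-OHT libraries. Its normalized counts were 2080.5, 2032.3 and 2014.5 with vehicle and 2756.4, 3292.1 and 2880.0 with 4-OHT. The 4-OHT values were all higher than the vehicle values, with replicate 2 the highest, and the means were 2042.4 ± 34.17 with vehicle and 2976.1 ± 280.5 with 4-OHT (SD, n = 3 each). The ratio was 1.457 and the log2 fold change 0.54 (SE 0.058, 95% interval 0.4183 to 0.6595, limma adjusted p = 2.978e-07), and 7.350% of tested genes had a larger rise. Crb3 overlaps Slc25a23 by 759 bases and Dennd1c by 14 bases on the opposite strand in the GRCm38 annotation. Slc25a23 fell from 232.3 ± 12.69 to 153.4 ± 17.76 normalized counts and Dennd1c rose from 280.8 ± 8.464 to 407.6 ± 19.89. How reads in the shared bases were assigned is not known, and their part in the Crb3 result was not tested.

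Of the Lgl genes, the substrates that aPKC keeps from the apical membrane, only Llgl2 passed the test. It had 4022.0, 4044.8 and 4255.3 normalized counts with vehicle and 5251.4, 5403.5 and 5025.8 with 4-OHT. All 4-OHT values were higher, with means of 4107.4 ± 128.6 and 5226.9 ± 190.1 (SD, n = 3 each), a ratio of 1.273 and a log2 fold change of 0.35 (SE 0.045, 95% interval 0.2526 to 0.4424, limma adjusted p = 3.673e-06). Larger rises were seen in 14.370% of tested genes.

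Llgl1 had 2000.3, 2070.6 and 2014.5 with vehicle and 2245.0, 2135.3 and 2174.2 with 4-OHT, groups that did not overlap. Its log2 fold change was 0.11 (interval 0.005985 to 0.2079), which did not pass after adjustment (limma adjusted p = 0.08133). The end of Llgl1 shares 64 bases with Flii, which lies on the opposite strand in the GRCm38 annotation and itself rose from 5297.4 ± 86.11 to 6014.5 ± 80.47 normalized counts. The share of Llgl2 among Lgl reads was 66.79%, 66.14% and 67.87% with vehicle and 70.05%, 71.68% and 69.80% with 4-OHT, a difference of 3.578 percentage points between groups that lay apart (exact permutation p = 0.1, the smallest possible).

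The lateral scaffolds did not pass the test. Scrib, the mouse Scribble gene, had 3176.8, 2921.2 and 3150.0 normalized counts with vehicle and 3069.4, 2980.1 and 2837.9 with 4-OHT, which overlap. Its log2 fold change was -0.06 with an interval of -0.1608 to 0.04657 (limma adjusted p = 0.3763). Dlg1, the discs large scaffold, had 2308.2, 2357.2 and 2412.8 against 2659.3, 2559.2 and 2470.2, with every 4-OHT value above the vehicle values. The log2 fold change of Dlg1 was 0.12 (interval 0.01795 to 0.2198) and lay at the edge of the threshold (limma adjusted p = 0.05299), and with a filter at a mean of 50 in place of 10 it passed (limma adjusted p = 0.0469).

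**Figure D4:**
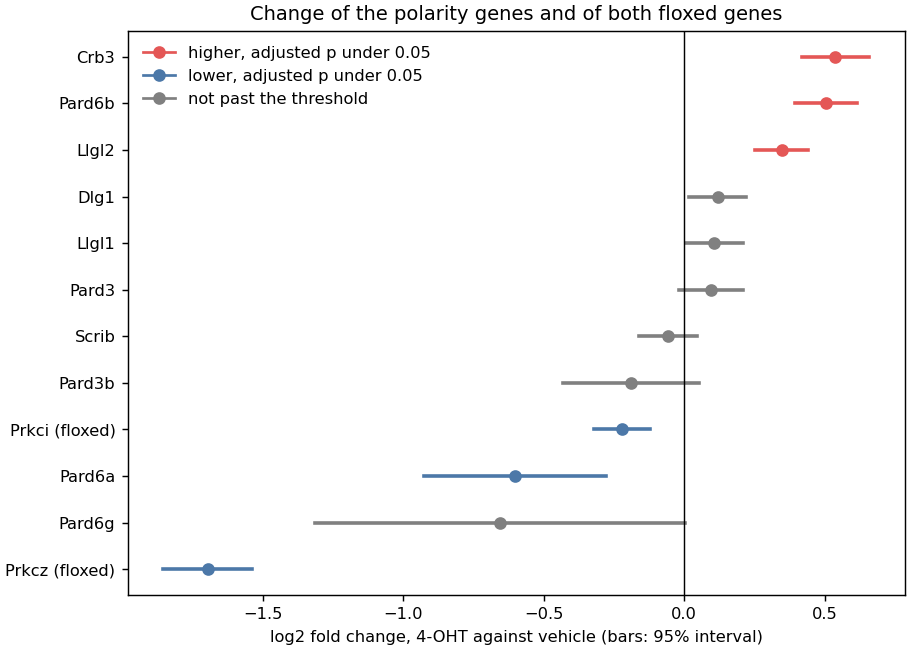
Log2 fold change of 4-OHT against vehicle (x axis) for the 10 genes and for both floxed genes (y axis), with bars for the 95% interval. Crb3, Pard6b and Llgl2 lie to the right of 0 and Pard6a to the left with intervals clear of it, the Pard6g interval is the widest of the 10, and Scrib lies nearest to 0. Among the 10 genes, the intervals of Dlg1 and Llgl1, which did not pass after adjustment, also lie just above 0.

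Per kilobase of annotated exon, the scale on which genes can be compared with each other, Crb3 stood first in vehicle organoids at 1305.9 ± 21.85 normalized counts per kilobase (SD, n = 3). Llgl2 followed at 847.9 ± 26.55, Pard6b at 568.2 ± 28.39, Scrib at 477.8 ± 21.77, Llgl1 at 417.2 ± 7.652 and Dlg1 at 219.8 ± 4.874. Pard6a at 95.24 ± 12.00 and Pard3 at 84.85 ± 0.248 had overlapping ranges and could not be ordered, and Pard3b at 23.27 ± 1.836 and Pard6g at 10.72 ± 1.048 stood last. The 3 genes that rose were thus the 3 with the highest levels per kilobase in vehicle organoids, within a set of 10. Exon lengths were from GRCm38 and may differ from those the authors counted over. With 4-OHT the order stayed Crb3, Llgl2, Pard6b, but Scrib (459.2 ± 18.10) and Llgl1 (449.4 ± 11.44) overlapped and Pard3 (90.77 ± 3.073) stood above Pard6a (62.68 ± 9.617).

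Other genes of the polarity network were read from 7 lists. Junction receptors that dock Par3 had 5 of 8 tested genes higher, against 22.7% of all tested genes, and 0 lower, against 21.0% (0 lower also by edgeR, by DESeq2 and at an unadjusted p under 0.05), with a median log2 fold change of 0.37. Jam2, a junctional adhesion molecule, rose from 114.8, 139.7 and 135.6 to 302.7, 284 and 269.8 normalized counts (log2 fold change 1.13, SE 0.12, limma adjusted p = 1.972e-07). Nectin4, a cell adhesion receptor, rose from 597.1, 574.6 and 589.6 to 990.8, 982.6 and 967.6 (0.74, limma adjusted p = 1.381e-08).

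The Par-1, Par-4 and Par-5 genes, which cover the MARK kinases, the LKB1 module and the 14-3-3 proteins that bind aPKC-phosphorylated Par proteins, had 10 of 15 tested genes higher, against 22.7% of all tested genes, and 0 lower, against 21.0% (0 lower also by edgeR, by DESeq2 and at an unadjusted p under 0.05; median log2 fold change 0.22). Of the 14-3-3 genes, Ywhah rose by a log2 fold change of 0.38 (limma adjusted p = 1.052e-06) and Sfn by 0.38 (limma adjusted p = 2.184e-06). Of 4 tested genes of the Crumbs complex and its scaffolds, 1 was higher and 1 lower, near the shares of all tested genes. Pals1, the Crumbs-binding scaffold, rose (log2 fold change 0.26, limma adjusted p = 0.00065) and Mpp7 fell by 0.23 on the log2 scale (limma adjusted p = 0.0496). The call for Mpp7 was lost under 4 of the other settings and when any of 5 libraries was left out. The paralogs Crb1 and Crb2 had at most 1 read in a library, so nearly all Crumbs reads of these organoids came from Crb3.

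Of 12 aPKC adaptors and spindle orientation genes, 4 were higher and 2 lower (median 0.14), near the shares of all tested genes (22.7% and 21.0%). Without the 4-OHT libraries 2 and 3, fewer of them were called higher, as were fewer genes across the table, with a single 4-OHT library left. Gnai2 rose by 0.44 (limma adjusted p = 4.939e-08) and Wwc2, of the KIBRA family, by 0.27 (limma adjusted p = 0.00226), whereas Gpsm2 (LGN) fell by 0.42 on the log2 scale (limma adjusted p = 6.042e-06) and Numa1, which ties spindle microtubules to the cortex, by 0.24 (limma adjusted p = 0.00015). Gpsm2 and Numa1 act in mitosis, and markers of proliferating cells moved with them: 10 of 10 were lower, with summed levels of 1812.2 to 1885.1 RPM with vehicle and 935.3 to 1053.4 with 4-OHT. The part of this in those results was not tested.

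Erbin, a lateral scaffold of the LAP family, was the single gene called among 5 tested relatives of Dlg, Scribble and Lgl (log2 fold change 0.15, limma adjusted p = 0.0119; 0 were lower, also by edgeR, by DESeq2 and at an unadjusted p under 0.05), or 20% against 22.7% of all tested genes. The call for Erbin was lost with quantile normalization, without vehicle replicate 2 and without 4-OHT replicate 3. Planar polarity genes, which order cells within the sheet rather than from apex to base, had 2 of 11 higher (Dvl1 by 0.34 and Vangl1 by 0.33) and 3 of 11 lower, near the 22.7% and 21.0% of all tested genes. The cadherin Celsr2 fell by 0.66 on the log2 scale and Dvl2 by 0.33, and the third was Celsr1. Dvl1 and Dvl2, both Dishevelled adaptors of Frizzled receptors, thus moved in opposite directions.

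Of 14 tested regulators of epithelial identity, 4 were higher and 2 lower (5 lower with quantile normalization), where 22.7% and 21.0% of all tested genes were. The transcription factor Grhl3 rose by 0.69 (limma adjusted p = 5.203e-08) and Cdh1, which encodes E-cadherin, by 0.32, whereas Cdx2 and Elf3 each fell by 0.26 on the log2 scale. The repressors known for binding the CAGGTG E-box had few reads and were not tested: Snai1 had at most 12 in a library, Snai2 at most 1, Zeb1 at most 3 and Zeb2 at most 13.

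**Figure D5:**
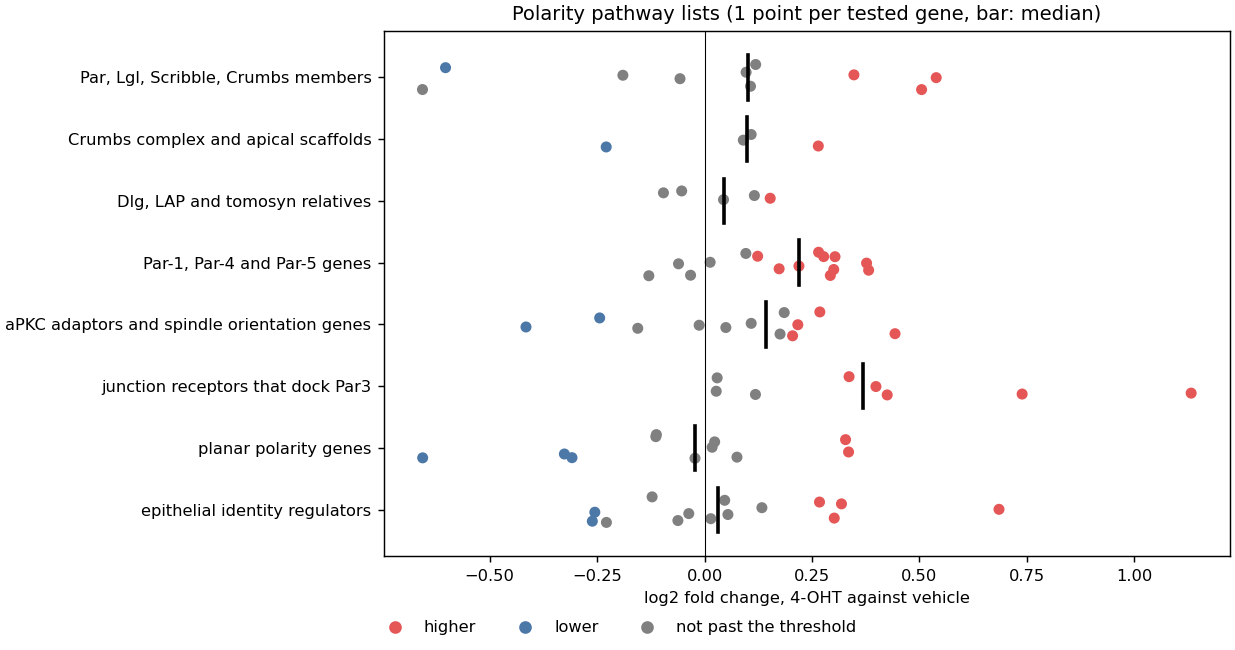
Log2 fold change of 4-OHT against vehicle (x axis) for each tested gene (points) of the 10 polarity genes and of 7 lists of other polarity genes (y axis), with black bars for the list median. Junction receptors that dock Par3 have the highest median, 0.37, and planar polarity genes the lowest, -0.02.

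Markers of other cell states moved together with the rises of Crb3, Pard6b and Llgl2. Besides the summed epithelial markers given above, 7 of 10 mature colonocyte markers and 5 of 8 goblet cell markers were higher (1 goblet marker was lower), where 22.7% of all tested genes were. Of 9 tested markers of crypt base stem cells, 7 were lower and 1 was higher, where 21.0% of all tested genes were lower, with summed stem levels of 1355.2 to 1369.5 RPM with vehicle and 1055.1 to 1142.3 with 4-OHT. Summed vessel, leukocyte and nerve or glia markers were at most 2.968, 11.76 and 2.386 RPM in any library. The summed mature colonocyte level overlapped between groups (2433.8 to 2742.8 and 2530.6 to 2676.0 RPM), as did the summed goblet level (382 to 475.8 and 399.7 to 449.5 RPM). Few genes made up these sums. In vehicle replicate 1, Ceacam1 (log2 fold change 0.003) gave 45820 of 53465 colonocyte reads. Muc2 (-0.16) and Fcgbp (-0.32) gave 2520 and 2247 of 7786 goblet reads there. The sums thus say little about the other markers. The part of these cell states in the results for the polarity genes was not tested. Without the 4-OHT libraries 2 and 3, which held the ileal, plasma cell and smooth muscle transcripts, the same 4 genes passed: Crb3 at 0.43 (limma adjusted p = 0.000403), Pard6b at 0.45 (0.000818), Llgl2 at 0.35 (0.00111) and Pard6a at -0.87 (0.00792), with the single remaining 4-OHT library assumed to vary like the vehicle libraries.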

How the data were processed

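RNA from 6 organoid cultures was harvested with Trizol and sequenced at a commercial provider. The deposited table holds normalized counts per gene symbol, a signal that the authors scaled by a factor per library (not per length); STAR, DESeq2 and the GRCm39 (mm39) build are named in the submitters' processing notes, while the counting tool, annotation and strand are not given in the sources used here. Each value was a whole multiple of what 1 read is worth, so whole reads were recovered for 100% of values (within 0.1 of a whole number).

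The 13210 of 25067 rows whose normalized counts averaged 10 or more (1754 were at 0 throughout) were tested with limma 3.58.1 in R 4.3.3, with a mean-variance trend on log2(normalized count + 1), so that fold changes are on that scale and understate low genes. P-values were adjusted by Benjamini-Hochberg over all tested rows, with a threshold of 0.05. edgeR 4.0.16 (quasi-likelihood) and DESeq2 1.42.0 on recovered reads, other offsets, filters and scalings, a replicate block and each library left out were tried as alternatives. Paralog shares were compared with two-sided exact permutation tests.

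Groups came from the treatment labels. Replicate numbers are shared by both groups, but same-numbered libraries did not deviate together (correlations -0.00745, 0.0303 and -0.0202), so they were not treated as pairs. Replicates differed from each other by 3.49 to 6.44 times counting noise (chi-square per degree of freedom), so none was a copy of another. The genes and gene lists were chosen with earlier results of these data known. Some genes and 1 pathway list are not reported here. From each other pathway list, the text names up to 2 genes with the largest rise and 2 with the largest fall among called genes whose groups do not overlap; Celsr1, the genes overlapping Crb3 and Llgl1, and genes too low to test were named after their values were seen. Exon lengths and overlaps came from GENCODE on GRCm38 and promoter windows from RefSeq on GRCm38.p6, not from the build of the counts. Protein sequences were not used here.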

Additional observations from a re-analysis of the deposited data

How the results depend on the processing

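Under 16 alternatives Crb3, Pard6b and Llgl2 stayed higher and Pard6a lower past the threshold, with log2 fold changes of 0.4324 to 0.5921, 0.4451 to 0.5348, 0.2714 to 0.3755 and -0.8684 to -0.4697. Dlg1 passed in 3 of them: with a mean of at least 50 (0.1189, adjusted p = 0.0469), without vehicle replicate 3 (0.1351, adjusted p = 0.0494) and without 4-OHT replicate 3 (0.1451, adjusted p = 0.0474), all by limma. Without both 4-OHT libraries that held small-intestinal transcripts, Pard3b turned to 0.02111 (adjusted p = 0.925), genes called across the table were 1858 higher and 1711 lower, and 2 aPKC adaptors and spindle genes were called higher; fewer samples entered that fit. Leaving out 1 library at a time gave 2614 to 2905 genes higher and 2315 to 2725 lower across the table, 0 to 1 lower in the Crumbs list (Mpp7) and 0 to 1 higher among Dlg, LAP and tomosyn relatives (Erbin). The Crumbs list had 0 lower with an offset of 10, with no filter, with quantile normalization and by DESeq2. Quantile normalization also gave 0 higher among Dlg, LAP and tomosyn relatives and 5 lower among epithelial identity regulators. The causes were not tested.

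With the replicate number as a block, Crb3 had an adjusted p of 1.44e-09 and Pard6a of 0.00122 (limma), and 3 of the 10 genes were called higher and 1 lower, as without the block; no call of the 10 changed. No value was obtained for Pard6g with a mean of at least 50, since it fell below that filter. Pard6g had 12 to 45 reads per library, and its log2 fold change of -0.66 was -0.30 without 4-OHT replicate 2.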
